A study of Homo sapiens with 10 samples.

Results

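The long arm of chromosome 13 (13q), which is often gained in colorectal cancer, held 917 of the 38106 m6A peaks listed for 5 human colon cancer cell lines. A peak was counted on 13q when its summit lay at or above 19 Mb of chromosome 13 on hg19, and no chromosome 13 peak of any list lay below that position. RNA carrying N6-methyladenosine (m6A) had been pulled down with an antibody from fragmented total RNA and sequenced beside unenriched input RNA (MeRIP-seq), with 1 immunoprecipitation (IP) library and 1 input library per line. The lines were COLO205, COLO320DM, HT29, HCT116 and HCT15. All of them grew in the same medium, and the labels name no treatment. HCT116, HT29 and HCT15 carry the label colorectum, and COLO320DM and COLO205 the label colon. The labels give no copy number for any line, and there is no replicate, so every difference below compares libraries and intervals cover counting error only.

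m6A is the most common internal modification of messenger RNA. It is written by a nuclear complex around the methyltransferases METTL3 and METTL14, is read by YTH-domain proteins that steer splicing, translation and decay, and is typically dense near stop codons and in long internal exons. A m6A peak therefore needs a transcript, and a list of peaks follows which genes a line expresses as well as which sites are methylated. Chromosome 13 is acrocentric, with nearly all its genes on the long arm, which runs through long stretches with few genes, and carries KLF5 and CDX2, transcription factors of the gut epithelium, beside the tumour suppressor RB1. No hg19 annotation was used here, so no peak below is assigned to a gene and positions stand in for names.

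Depths recovered from the lists were 1.38 to 2.99 M (mega) IP reads in the 4 long lists and 5.02 M in HCT15, and 1.61 to 5.41 M input reads. The lists held between 8638 and 9835 peaks on chromosomes 1 to 22, X and Y, except for HCT15 with 905. HCT15 was also the only line whose IP depth was above its input depth, and its list was called with IP reads scaled down to the input. Because its list is short, HCT15 is left out of the comparisons by window and is described by its few peaks. A single input fragment over a site equalled 6.65 times the genome mean in COLO205 and between 11.6 and 16.2 times in the other 3 long lists, so local input below that level rests on reads from the surroundings of a peak.

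COLO205 had the most peaks on 13q and HCT15 the fewest. COLO205 listed 362 of its 9835 peaks there, 3.68% (exact binomial 95% interval 3.32% to 4.07%). COLO320DM listed 222 of 8638, or 2.57% (2.25% to 2.93%), and HT29 193 of 8833, or 2.18% (1.89% to 2.51%). HCT116 listed 133 of 9206, or 1.44% (1.21% to 1.71%), and HCT15 7 of 905, or 0.773% (0.312% to 1.59%). The interval of COLO205 overlapped no other, and that of HCT116 lay below those of HT29 and COLO320DM. The intervals of COLO320DM and HT29 overlapped each other. Among the 905 peaks of highest −log10 p of each list, COLO205 again had the highest share, 2.43%, whereas that of HT29, 1.33%, was below that of HCT116, 1.55%. These shares rest on few peaks, 22 in COLO205, 14 in HCT116 and 12 in HT29.

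The arm takes 3.11% of the chromosome spans. Per span, 13q was thus 1.18 times as dense as the whole list in COLO205, 0.827 times in COLO320DM, 0.703 times in HT29, 0.465 times in HCT116 and 0.249 times in HCT15. Ranked against the 23 other chromosomes, 13q came 9th of 24 in COLO205 and 23rd of 24 in HCT116 by this ratio. In HCT116 its ratio of 0.4649 was below that of every other autosome, but the next was nearly equal at 0.4656. The ratio of 13q leaves out the start of chromosome 13, which held no peak, whereas the other chromosomes were taken whole. Over the whole of chromosome 13 the ratio would be lower, so these ranks compare unlike spans.

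On other arms the lines came in another order. On 20q, also often gained, the ratio was highest in HT29 at 3.06, followed by COLO205 at 2.47, HCT116 at 2.06 and COLO320DM at 1.39. On 18q, often lost, the 4 long lists lay between 0.381 in COLO205 and 0.530 in COLO320DM. COLO205 thus had the highest ratio of the 4 long lists on 13q, where its interval overlapped no other. Its ratio on 18q was the lowest, but the intervals of all 4 shares overlapped there. That of COLO205 was 0.573% to 0.921% and that of COLO320DM 0.818% to 1.25%. Overlap of intervals does not show that the shares are equal, and the difference on 18q was not tested.

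**Figure D1:**
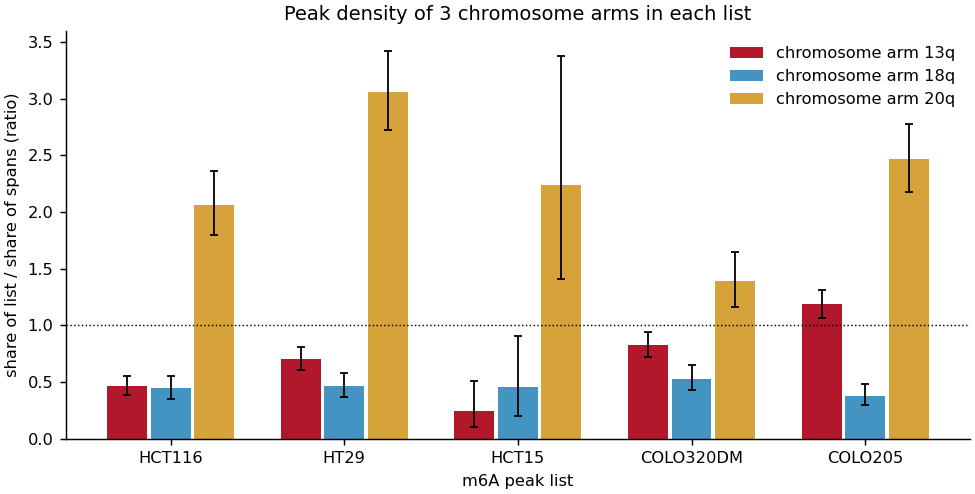
Bars give the share of each m6A peak list on 13q, 18q and 20q divided by that arm's share of the chromosome spans (a ratio), and whiskers the exact binomial 95% interval of the share. On 13q the bars run from 0.249 in HCT15 to 1.18 in COLO205, the only list above the dotted line at 1.

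The share of COLO205 on 13q was larger among peaks with little input. The local background of each peak was recovered from its fold and p-value. Peaks with a background of 1 input fragment or more are called input-covered, and the others input-poor. A background that is not a whole number of fragments can come from input around a peak, also above 1 fragment. Of the input-poor peaks of COLO205, 4.52% lay on 13q (3.95% to 5.15%), against 2.88% of its input-covered peaks (2.44% to 3.38%). Divided by the arm's share of the spans, this gave 1.46 for input-poor and 0.928 for input-covered peaks. Only the input-poor peaks were thus denser on 13q than its span. In HT29 the shares of input-poor and input-covered peaks were 2.58% (2.18% to 3.04%) and 1.55% (1.16% to 2.02%). In COLO320DM they were 2.97% (2.42% to 3.62%) and 2.32% (1.94% to 2.76%), and in HCT116 1.48% and 1.42%, with overlapping intervals in both. Among input-covered peaks COLO205 and COLO320DM had the highest shares, and the intervals of HT29 and HCT116 overlapped.

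Along the arm the lists had different shapes. HT29 gathered 36.8% of its 13q peaks from 110 Mb to the end (30.0% to 44.0%), a stretch that is 5.30% of the arm's span. HCT116 had 21.1% there (14.5% to 29%), COLO205 16.9% (13.1% to 21.1%) and COLO320DM 16.2% (11.6% to 21.7%). The 10 densest 1-Mb windows took 58.5% of the HT29 peaks of the arm, 48.9% of those of HCT116, 38.7% of those of COLO320DM and 31.5% of those of COLO205. Of the 97 windows, COLO205 had a peak in 81, COLO320DM in 62, HT29 in 51 and HCT116 in 44. The number of windows filled also follows the number of peaks. All 4 long lists had a peak in 33 windows, 3 of them in 18, 2 in 16 and 1 in 20.

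The middle of the arm was sparse in every list and nearly empty in HT29 and HCT116. From 53 to 73 Mb, a segment chosen after the data were seen that is 20.8% of the arm, COLO205 had 28 peaks, or 7.73% of its 13q peaks (5.20% to 11.0%), and COLO320DM 14, or 6.31% (3.49% to 10.4%). HCT116 had 4 peaks there, 3.01% (0.825% to 7.52%), and HT29 had 2, 1.04% (0.126% to 3.69%). The COLO205 peaks of this segment had a median of 4 IP reads, and 4 of the 28 were input-covered. Of the 14 COLO320DM peaks, 7 were input-covered, with a median of 8 reads. Only 3 of the 28 COLO205 peaks and 3 of the 14 COLO320DM peaks overlapped a peak of another long list. The longest stretch with no peak ran over 18.6 Mb in HCT116, from 55031116 to 73650070. It was 13.9 Mb in HT29, 6.07 Mb in COLO320DM and 5.29 Mb in COLO205.

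The end of the arm was poor in input in HT29. From 110 Mb on, 13 of 71 HT29 peaks were input-covered, 18.3% (10.1% to 29.3%), against 32.8% (24.6% to 41.9%) of those before it. In COLO320DM the end held 23 of 36 input-covered peaks, 63.9% (46.2% to 79.2%), in HCT116 17 of 28, 60.7%, and in COLO205 24 of 61, 39.3%. HT29 peaks at this end had a median of 6 IP reads and a median fold of 5.06.

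**Figure D2:**
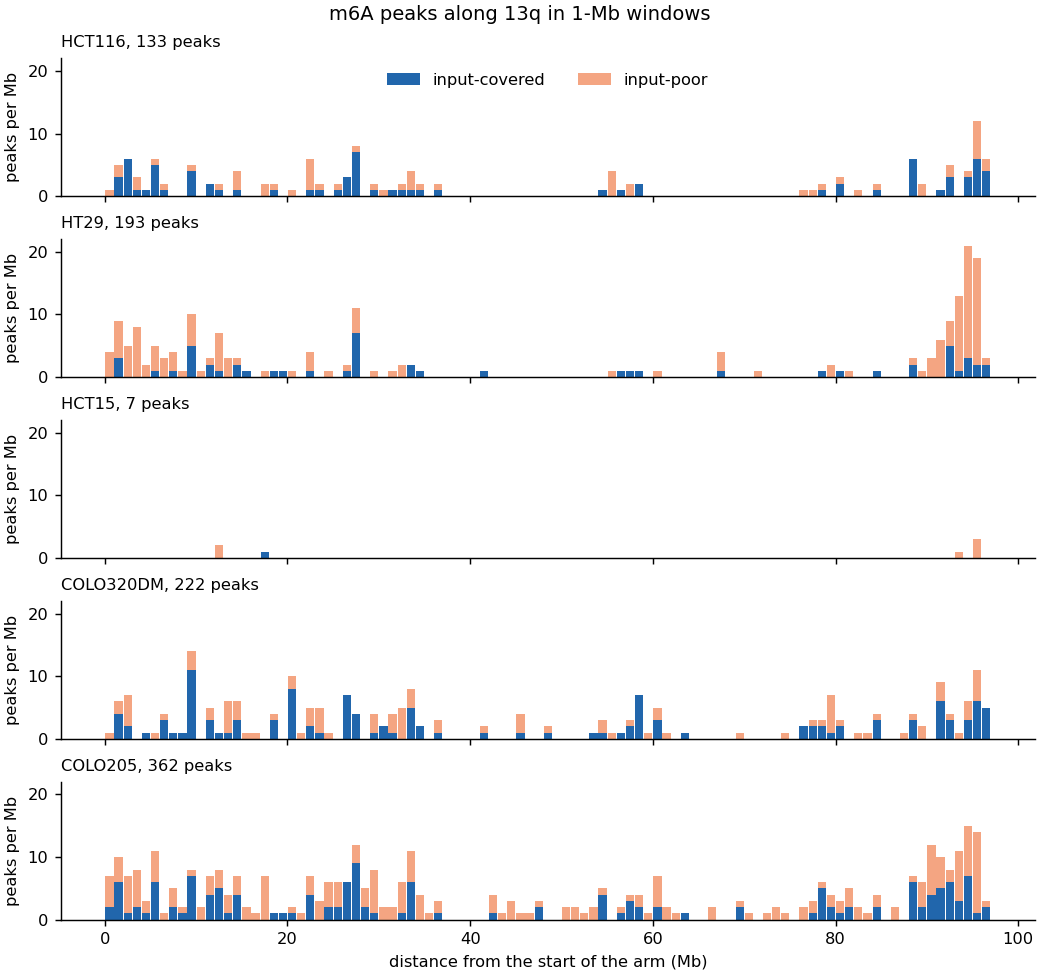
Bars count m6A peaks in 1-Mb windows by distance from the start of the arm at 19 Mb, in 1 panel per list, with input-covered peaks below and input-poor peaks stacked on them. HT29 reaches 21 peaks in a window near the end of the arm, where input-poor peaks are most of the bar, and COLO205 has peaks in 81 of the 97 windows.

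Which windows differed between the lines was asked in the 37 windows of 13q that held at least 10 peaks over the 4 long lists. A window counted as differing when the line on top stood at least 2-fold above the median of the other 3 lists, in peaks per list size with 0.5 added to each count. This held in 19 of the 37 windows, or 51.4% (34.4% to 68.1%), against 36.3% of the 1155 such windows of all chromosomes. The 10 peaks include those of the line on top, so a window can enter mainly through that line. Without COLO205, 21 windows of the arm remained and 9 of them were called, against 34.6% of all windows. That setting was added after seeing the data. In 1-Mb windows at 2-fold the interval of the arm includes the background share. In 2-Mb windows 20 of 30 were called, against 33.8% of all windows, and at 3-fold 12 of 37, against 14.2%. With windows shifted by 0.5 Mb it was 16 of 33, against 37.8%, and with input-covered peaks alone 6 of 15, against 33.9%. No interval was computed for these other settings. Windows called with COLO205 on top numbered 11 of the 37, against 64 of the 1155 (5.54%). Those called with COLO320DM on top numbered 5 of the 37, against 140 of the 1155 (12.1%), and with HT29 on top 3, against 127 (11%). HCT116 was on top in none of the called windows of 13q, against 88 of the 1155 (7.62%). No test was made, since there is 1 library per line.

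The window from 109000001 to 110000000 had the largest ratio. COLO205 had 12 peaks there, HT29 3, and HCT116 and COLO320DM none. Of the 12 COLO205 peaks, 10 were in no other list and 4 were input-covered. Their IP reads ran from 4 to 14, and local input had a median of 2.40 times the genome mean.

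The next window by ratio, from 112000001 to 113000000, had 13 peaks in HT29, 11 in COLO205, 1 in COLO320DM and none in HCT116. The HT29 peaks had 3 to 8 IP reads each, and 1 of the 13 was input-covered. HT29 had 21 peaks in the adjoining window to 114000000, against 15 in COLO205, 6 in COLO320DM and 4 in HCT116. There 3 of the 21 HT29 peaks were input-covered, while 7 of the 15 COLO205 peaks were.

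COLO320DM had its largest ratio at sites of strong local input. From 39000001 to 40000000 it had 10 peaks, against 2 in COLO205 and 1 each in HT29 and HCT116. Of these 10, 8 were input-covered and 8 were in no other list, with a median of 22.5 IP reads and a local input 97.4 times the genome mean. Local input is known only at a list's own peaks, so at the 8 sites in no other list it has no value in the other lines. The other 4 windows called with COLO320DM on top had high and low local input. Its median was 69.9 times the genome mean from 45000001 to 46000000 and 64.9 times from 77000001 to 78000000, but 2.61 times from 98000001 to 99000000 and 1.19 times from 42000001 to 43000000, which ranked 592nd and 618th of the 652 COLO320DM windows with at least 5 peaks.

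The other windows among the 5 largest ratios had COLO205 on top with 7 peaks each. From 36000001 to 37000000, HCT116 had 2 peaks, HT29 and HCT15 1 each and COLO320DM none. From 79000001 to 80000000, COLO320DM had 5 and HT29 1. In these windows 0 and 2 of the 7 COLO205 peaks were input-covered.

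The densest COLO320DM window of the arm ran from 28000001 to 29000000 and fell just short of the 2-fold call, at a ratio of 1.94. It held 14 peaks in COLO320DM, 10 in HT29, 8 in COLO205 and 5 in HCT116. At each list's own peaks, the median local input was 162 times the genome mean in COLO320DM, against 23.3 times in COLO205, 20.5 times in HCT116 and 9.29 times in HT29. By this measure it ranked 21st of the 652 COLO320DM windows with at least 5 peaks.

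A run of 4 peaks in that window lay over strong input, and the last of them over the strongest at any peak of the arm relative to the genome mean of its list. At chr13:28536377-28536782, chr13:28536911-28536993, chr13:28537086-28537222 and chr13:28543235-28543386 COLO320DM had 47, 50.9, 56 and 71 local input fragments, the last being 1153 times the genome mean. The 50.9 is not a whole number and can come from input around that peak. IP reads numbered 73, 74, 67 and 84, so the authors' folds were only 2.36, 2.21, 1.83 and 1.81. Nearby, chr13:28498487-28498809 had a fold of 7.48 with 50 IP reads over 9 fragments. High local input there went with low fold, as the fold divides by that input.

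Other windows with high local input differed by line. In HCT116 the highest medians were 56.2 times the genome mean, from 46000001 to 47000000 with 8 peaks and from 107000001 to 108000000 with 6. In COLO205 the highest was 93.2 times, from 73000001 to 74000000 with 5 peaks, 6th of its 686 windows, followed by 56.4 times from 45000001 to 46000000. In HT29 the highest was 26.1 times, from 111000001 to 112000000 with 9 peaks. The window from 46000001 to 47000000 was also among the 3 highest of HT29, at 11.6 times with 11 peaks, and with 12 peaks it was among the 3 densest of COLO205.

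Enrichment on 13q was close to that of the rest of each list. The median of the authors' fold was 5.41 on 13q and 5.70 elsewhere in COLO205, 5.03 and 5.23 in COLO320DM, 5.60 and 5.67 in HT29, and 5.27 and 5.11 in HCT116. The 95% interval of the 13q median held the median of the rest in these 4 lists. Peaks on 13q rested on fewer IP reads in COLO205, with a median of 7 (7 to 8) against 9 elsewhere, and in HT29, with 6 (6 to 7) against 8. In COLO320DM the medians were 11 and 12, and in HCT116 9 and 11, with intervals that include the median of the rest. Fewer than 5 reads supported 22.7% of COLO205 peaks on 13q and 13.5% of those elsewhere, and 30.1% and 16.8% in HT29.

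Fewer 13q peaks were input-covered in COLO205 and HT29. In COLO205 input covered 146 of 362, 40.3% (35.2% to 45.6%), against 51.9% of its peaks elsewhere, and in HT29 53 of 193, 27.5% (21.3% to 34.3%), against 38.9%. In COLO320DM it covered 125 of 222, 56.3% (49.5% to 62.9%), against 62.4%, and in HCT116 76 of 133, 57.1% (48.3% to 65.7%), against 58.1%. In the last pair of lists the interval of 13q included the share of the rest.

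The input-poor peaks of COLO205 on 13q seldom lay where local input was at its lowest. The caller sets the local background of a peak no lower than the genome mean, and above that mean a background under 1 fragment comes from input reads spread over kilobases around the peak. Of 216 input-poor COLO205 peaks on 13q, 21 stood at the genome mean, 9.72% (6.12% to 14.5%), against 25.9% of those elsewhere. Their median local input was 1.97 times the genome mean (1.75 to 2.0), against 1.5 times elsewhere. By the share at the mean, chromosome 13 was the lowest of 24 chromosomes in COLO205. The share at the mean was chosen as a measure after the data were seen.

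On other arms the same measure differed by line. At the genome mean stood 9.72% of its input-poor peaks on 13q, 9.33% of those on 20q (5.20% to 15.2%) and 40.0% of those on 18q (24.9% to 56.7%). In COLO320DM the share on 13q was 17.5% (10.6% to 26.6%), against 23.5% elsewhere, and it was 43.5% on 18q (28.9% to 58.9%) and 32.3% on 20q (16.7% to 51.4%). In HT29 it was 32.1% on 13q (24.5% to 40.6%), against 32.7% elsewhere, and 23% on 20q and 56.4% on 18q. In HCT116 it was 29.8% (18.4% to 43.4%), against 30.6% elsewhere, and 35.6% on 18q and 38.4% on 20q. The share on 20q was thus below that of all peaks outside 13q in COLO205 and HT29 and above it in COLO320DM and HCT116. Only in COLO205 did the interval of 13q lie apart from the share of the rest. Of the 6 input-poor HCT15 peaks on 13q, 4 were at the mean, against 43% elsewhere.

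**Figure D3:**
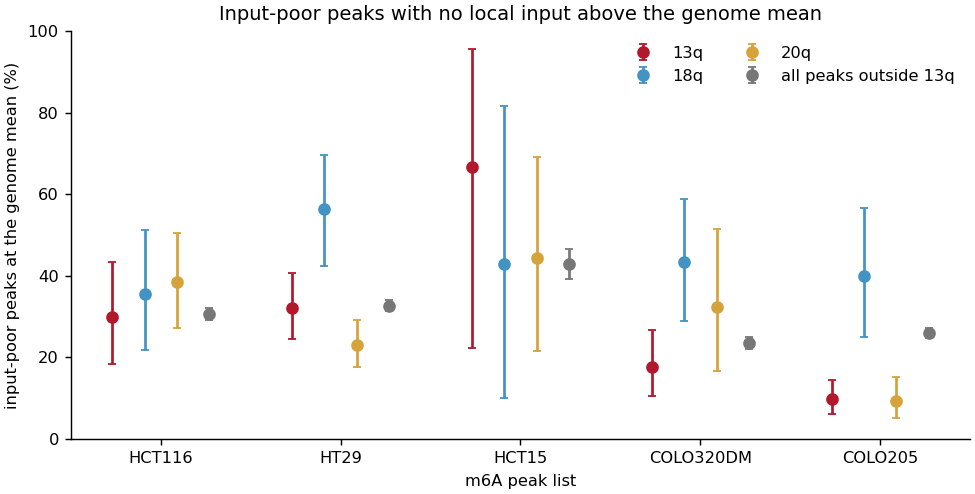
Points give the percentage of input-poor peaks whose local input stood at the genome mean, on 13q, 18q, 20q and outside 13q, for each m6A peak list, with exact binomial 95% intervals as whiskers. In COLO205 13q and 20q lie at 9.72% and 9.33%, below the 25.9% of all peaks outside 13q, while 18q lies at 40.0%.

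Peaks of COLO205 and COLO320DM on 13q were found in other lists less often than their peaks elsewhere. In COLO205, 152 of 362 overlapped a peak of another long list by at least 1 nt, 42.0% (36.9% to 47.3%), against 65.5% of its peaks elsewhere. In COLO320DM, 97 of 222 did, 43.7% (37.1% to 50.5%), against 53.1%. In HT29, 128 of 193 did, 66.3% (59.2% to 73%), against 62.7%, and in HCT116, 90 of 133 did, 67.7% (59.0% to 75.5%), against 61.5%. The last 2 intervals included the share of the rest.

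By pair, COLO205 peaks in HCT116 and in COLO320DM had the lowest shares among the long lists. Of the 362 COLO205 peaks on 13q, 19.9% were in HCT116 (15.9% to 24.4%), against 39.3% elsewhere, 20.7% were in COLO320DM (16.7% to 25.3%), against 30% elsewhere, and 30.1% were in HT29 (25.4% to 35.1%), against 48.4% elsewhere. In the other direction, COLO205 held 59.1% of HT29 peaks on 13q (51.8% to 66.1%), against 52.1% elsewhere. It held 53.4% of HCT116 peaks (44.5% to 62.1%), against 41.2% elsewhere, and 33.8% of COLO320DM peaks, against 33.9% elsewhere. HT29 held 26.6% of COLO320DM peaks on the arm, against 27.1% elsewhere, and 38.3% of HCT116 peaks, against 36.2%. COLO320DM held 44.4% of HCT116 peaks (35.8% to 53.2%), against 38.8% elsewhere. HCT116 held 27.9% of COLO320DM peaks on the arm (22.1% to 34.3%), against 42.4% elsewhere. HCT116 also held 28% of HT29 peaks (21.8% to 34.9%), against 37.5% elsewhere, while COLO320DM held 32.6% of them (26.1% to 39.7%), against 26.5%. Of the long lists, HCT116 had the fewest peaks on the arm, 133, and COLO205 the most, 362. Whether these numbers bear on the shares was not tested, so each pair is given in both directions.

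Peaks in no other list made up most of the COLO205 and COLO320DM peaks of the arm. In COLO205 they numbered 210, 58.0% (52.7% to 63.1%), against 34% of its peaks elsewhere. In COLO320DM they numbered 125, 56.3% (49.5% to 62.9%), against 46.9%, which made chromosome 13 the highest of 24 chromosomes in that list. They numbered 63 in HT29, 32.6%, against 36.4%, and 43 in HCT116, 32.3%, against 38.5%. By this share chromosome 13 ranked 2nd of 24 in COLO205. The arm 18q of COLO320DM had nearly the same share as its 13q, 55.7% (44.7% to 66.3%), while 20q had 35.4% (27.2% to 44.2%).

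The gap of COLO205 was wide among input-poor peaks and narrow among input-covered ones. Of input-poor COLO205 peaks, 74.5% on 13q (68.2% to 80.2%) and 42.7% elsewhere were in no other list. Of its input-covered peaks, 33.6% on 13q (26.0% to 41.8%) and 25.9% elsewhere were, and the first interval lay just above the second share. In COLO320DM these shares were 80.4% and 72.7% of input-poor peaks, and 37.6% and 31.3% of input-covered peaks, with intervals of 13q that include the share elsewhere. The same share of all COLO205 peaks was 30.8% on 20q (25.3% to 36.8%) and 36.1% on 18q (25.1% to 48.3%).

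The 210 COLO205 peaks in no other list were spread out. These peaks, chosen as a group after the data were seen, lay in 77 of the 97 windows with at most 10 in any, 25 lay from 53 to 73 Mb and 23 from 110 Mb on. Their median was 5 IP reads, 161 of them were input-poor, 76 had under 5 reads and 77 had a −log10 q of at least 5. Elsewhere 3219 COLO205 peaks were in no other list, with a median of 6 reads. Of these, 1946 were input-poor, 809 had under 5 reads and 1447 had a −log10 q of at least 5. At the genome mean stood 19 of the 210 and 628 of the 3219. The arm held 21 COLO205 peaks at the mean in all, so 19 of 21 were in no other list, against 628 of 1181 elsewhere.

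Shared peaks rested on more reads than unshared ones in each long list. On 13q the medians of shared and unshared peaks were 12 and 5 IP reads in COLO205, 21 and 6 in COLO320DM, 7.5 and 4 in HT29, and 13 and 5 in HCT116. Their median folds were 6.41 and 5.11 in COLO205, 5.10 and 4.93 in COLO320DM, 5.94 and 4.72 in HT29, and 5.66 and 4.47 in HCT116. Among COLO205 peaks with at least 5 IP reads, 47.9% on 13q and 29.4% elsewhere were in no other list.

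**Figure D4:**
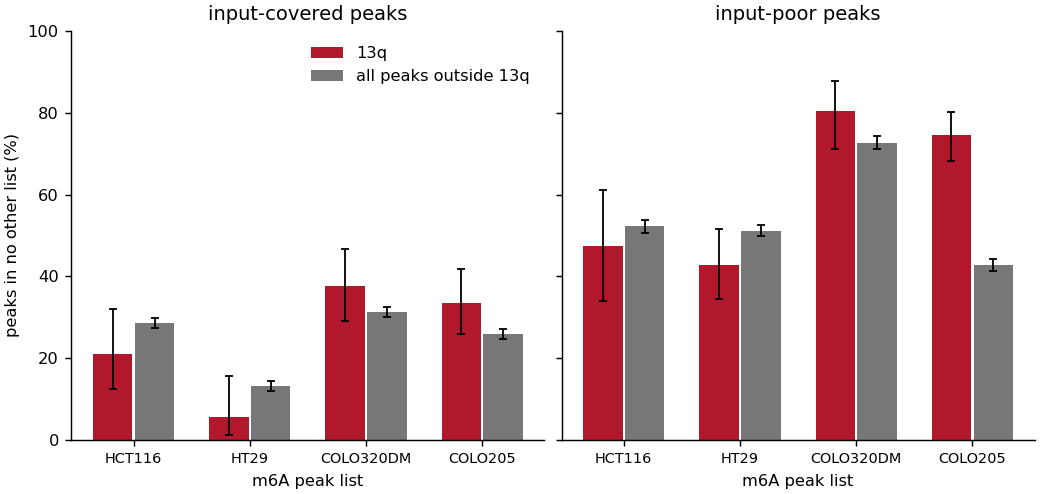
Bars give the percentage of peaks found in no other list, for peaks on 13q and for all peaks outside it, split into input-covered (left) and input-poor peaks (right) of the 4 long lists, with exact binomial 95% intervals as whiskers. The widest gap is that of input-poor COLO205 peaks, with 74.5% on 13q and 42.7% outside it.

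Merging overlapping peaks gave 613 regions on 13q. A single list held 441 of them, 71.9% on 13q against 63.8% of the regions elsewhere. Those held by 2 lists numbered 94, 15.3% against 17.9%, those held by 3 numbered 45, 7.34% against 9.80%, and those held by 4 numbered 33, 5.38% against 8.32%. None was held by all 5, against 0.134% elsewhere. The 4 long lists shared 32 regions, 5.22% (3.60% to 7.29%), against 6.91% of the regions elsewhere. Of the 32, 20 were input-covered in all 4 lists and 2 in none. COLO205 had the highest median fold over them, 7.83, and COLO320DM the lowest, 5.32, with 6.72 in HT29 and 6.46 in HCT116. Where a transcript has neither IP nor input reads, a missing peak and an unexpressed transcript cannot be told apart. Among regions held by 2 long lists and no other list, HT29 with COLO205 had 43, 7.01% against 5.91% elsewhere. HCT116 with COLO205 had 16, 2.61% against 2.30%. COLO320DM had 15 with COLO205, 2.45% against 1.88%, and 12 with HCT116, 1.96% against 4.78%. It had 4 with HT29, 0.653% against 0.954%, and HCT116 with HT29 had 2, 0.326% against 1.61%. Another 3 regions were held by HT29, COLO205 and HCT15, 0.489% against 1.12% elsewhere.

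Of the 32, the region with the highest minimum percentile of fold over the 4 long lists lay near the end of the arm, at chr13:115057097-115057249. HCT116 had a fold of 18.9 there over 21 IP reads, COLO320DM 15.3 over 34, HT29 14.8 over 24, and COLO205 10.3 over 15. It held the peak of highest fold on 13q in both HCT116 and COLO320DM and the third highest in HT29, while COLO205 had higher folds elsewhere on the arm. Local input ranged from 0.263 fragments in HCT116 to 2 in COLO320DM. The second, chr13:33160633-33160737, had folds of 12.5 in COLO205 and 11.4 in HCT116, with 13 and 12 reads, and of 10.8 in HT29 and 8.72 in COLO320DM, with 12 and 19 reads.

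The window from 46000001 to 47000000 held the most shared regions, 4 of the 32, with a wide range of folds. At chr13:46541711-46542067 the folds were 16.6 in COLO205 with 43 reads, 10.5 in HT29 with 31, 8.10 in HCT116 with 42 and 7.94 in COLO320DM with 48. At chr13:46559464-46559913 they were 14.4 in COLO205, 11.5 in COLO320DM, 7.53 in HCT116 and 6.32 in HT29. Another peak of this window had the highest −log10 p of HCT116 on the arm, 55.7, at chr13:46549448-46549910, with 82 reads over 12 input fragments and a fold of 9.89. COLO320DM had 100 reads there over 29 fragments, which gave a fold of 5.11. HT29 had 60 reads over 9 fragments and a fold of 8.51, and COLO205 81 reads over 23 fragments and a fold of 5.99. The COLO320DM peak thus had the most IP reads and the lowest fold of the 4. The remaining region, chr13:46543405-46544078, had a fold of 4.70 in COLO320DM, below that list's median of 5.03 on the arm, of 5.77 in HCT116, 8.94 in COLO205 and 9.61 in HT29.

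A pair of neighbours lay from 107143560 to 107145588. At chr13:107144881-107145588 the folds were close together, from 7.17 in HT29 to 8.34 in HCT116, over 16 to 53 reads. At chr13:107143560-107143752, they spread from 5.77 in HCT116 to 13.1 in COLO320DM. The remaining 4 of the 10 strongest shared regions began at 33344255, 41943254, 45963439 and 108862037. At the region that began at 41943254 every list had an input-poor peak of 6 to 8 reads, with folds of 6.69 to 8.31.

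**Figure D5:**
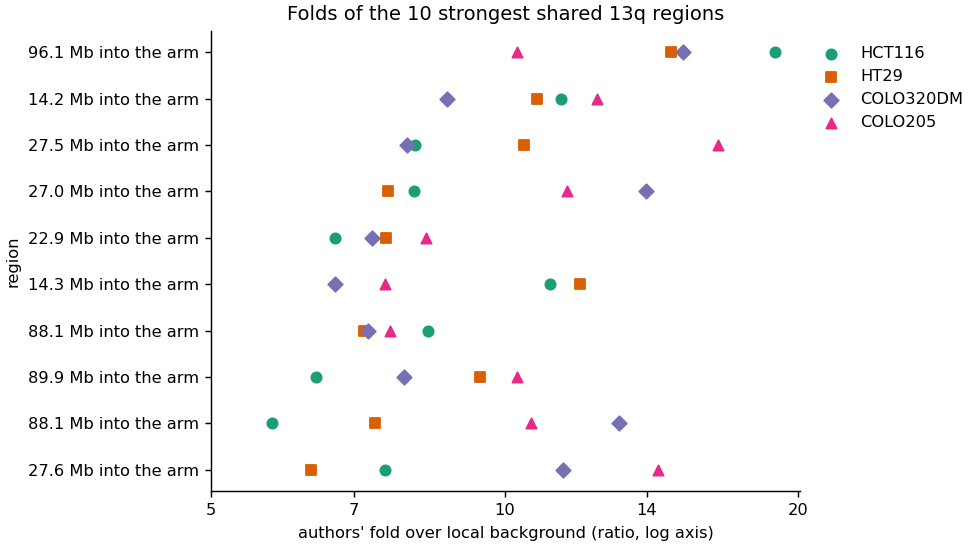
Points give the authors' fold over local background (a ratio, on a log axis) in each of the 4 long lists for the 10 regions on 13q with the highest minimum percentile of fold, named by their distance from the start of the arm. Folds run from 5.77 to 18.9, and no list is highest in all 10 regions.

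Some of the strongest peaks of a list were weak or absent in others. The highest fold on 13q was that of COLO205 at chr13:36531930-36532548, 23.4, with 33 IP reads and the highest −log10 p of that list on the arm, 50.3. HT29 had 15 reads and a fold of 15.1 there, HCT116 4 reads and a fold of 4.82, HCT15 28 unscaled reads and a fold of 5.00, and COLO320DM had no peak. HT29 reached its highest fold, 19 with 20 reads, at chr13:46577281-46577491, which COLO320DM also lacked. COLO205 had a fold of 19.3 with 29 reads at chr13:107164955-107165142, where HT29 had none. The strongest COLO320DM peak by −log10 p, 43.5, was at chr13:46559518-46559909 inside the region that began at 46559464.

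The remaining leading peaks were shared by the 4 long lists. HCT116 had a fold of 16.1 with 25 reads at chr13:28195055-28195270 and of 12.4 with 19 reads at chr13:75860843-75861048. COLO205 had a fold of 12.5 with 60 reads at chr13:31035489-31035657. Of the 3 highest folds of the arm in each long list, 4 of 12 were absent from at least 1 of the other 3.

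HCT15 listed 7 peaks on the arm, each of which overlapped an HT29 peak. Elsewhere 85.2% of HCT15 peaks did. Of the 7, 5 overlapped a COLO205 peak, against 78.6% elsewhere, 1 an HCT116 peak, against 42.9%, and none a COLO320DM peak, against 6.24%. They had 11 to 28 unscaled IP reads and folds of 4.34 to 6.19, and 1 was input-covered, against 20.2% elsewhere. A pair of neighbours, chr13:31416764-31416837 and chr13:31416919-31417112, lay inside a merged region of 1563 nt. The highest fold was at chr13:114579206-114579284 and the lowest at chr13:114477650-114477759, and the other 2 near the end of the arm had equal folds of 4.96. Seen from the longer lists, HCT15 held 4 of 362 COLO205 peaks on the arm, 1.10%, against 7.3% elsewhere, and 7 of 193 HT29 peaks, 3.63%, against 8.16%. It held 2 of 133 HCT116 peaks, 1.5%, against 4.25%, and none of the 222 COLO320DM peaks, against 0.665%. With 7 peaks the exact interval of each share is wide, 59.0% to 100% for those found in HT29.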

How the data were processed

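m6A IP and input RNA of 5 lines were sequenced, 1 library of each per line. Per the labels, about 300 µg of total RNA was cut to about 100 nt and 10% was kept as input. Per the submitters' processing notes, cutadapt, FastQC, BWA and MACS2 were used with hg19, and versions and parameters are not given in the sources used here. For each IP library the authors deposited a peak list with positions, the fold over local background (a ratio), the −log10 p-value, the −log10 q-value and a score that repeats the q-value.

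IP reads and local input at each peak were recovered here by solving for whole reads under a pseudocount of 1 and a Poisson p-value, within 0.001 on the −log10 scale. All peaks of the 5 lists had a solution, and on simulated peaks 100% were recovered (1490 without scaling and 1231 with the IP scaled down). The simulated peaks were drawn from the same model and had at least 3 reads without scaling and 4 with it. Peaks of 2 reads and peaks over the strongest local input were not simulated. The control is read as the input library, which the lists do not state. Depths rest on this recovery, with a genome size of 2.7 Gb.

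Intervals of shares are exact 95% intervals after Clopper and Pearson. They cover counting error only, and no test was made. Overlap needed at least 1 nt, and bedtools 2.31.1 gave the same counts as the code used here on simulated intervals. It was not run on the peak lists. The arms 18q and 20q began at 18.5 and 29.4 Mb. Named windows were the 3 with most peaks per list, the 3 with the highest median local input per long list (at least 5 peaks) and the 5 with the largest ratio. Named peaks were, in each list, the 3 strongest by −log10 p and the 3 strongest by fold, and the 10 shared regions with the highest minimum percentile of fold. The peaks described in the densest COLO320DM window were chosen after their values were seen. Members and rules were chosen with earlier results of these data known. Python 3.11.15, pandas 2.3.3 and scipy 1.17.1 were used. Coordinates are hg19, counted from 1.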

Additional observations from a re-analysis of the deposited data

How the results depend on the processing

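Keeping only peaks with a −log10 q of at least 5 moved the share of the list on 13q to 3.09% in COLO205, 1.83% in HT29 and 0.270% in HCT15. It moved the input-covered share to 69.0% in HCT116, 68.5% in COLO320DM, 50.8% in COLO205 and 0% in HCT15 (1 peak left), and the median fold to 7.09 in COLO205, 6.67 in HCT116, 6.61 in HT29 and 6.41 in COLO320DM. The share found in another long list became 76.1% in HCT116, 48.6% in COLO205 and 0% in HCT15. The share of input-poor peaks at the genome mean, an alternative added after seeing the data, became 13.6% in HCT116, 10.3% in COLO320DM and 100% in HCT15. A fold of at least 4 moved the input-covered share of HCT116 to 66.3%. Input-covered peaks alone put 2.88% of COLO205 and 1.55% of HT29 on 13q. In lists cut to the 905 strongest peaks the share on 13q was 2.43% in COLO205, 1.66% in COLO320DM and 1.33% in HT29, and sharing was 85.7% in HCT116, 66.7% in COLO320DM, 63.6% in COLO205 and 14.3% in HCT15. A reciprocal overlap of 50% gave a sharing of 55.6% in HCT116, 43.0% in HT29, 42.9% in HCT15 and 29.6% in COLO205, and 16 regions of the 4 long lists. Summits within 100 nt gave 51.3% in HT29 and 35.4% in COLO205.

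At least 5 recovered reads, also added after seeing the data, put 3.30% of COLO205 and 1.84% of HT29 on 13q. Sharing then was 77.8% in both HCT116 and HT29, 54.1% in COLO320DM and 52.1% in COLO205. The share of COLO205 peaks on 13q in no other list was 42.5% at a −log10 q of at least 5 (25.5% elsewhere), 33.6% among input-covered peaks (25.9%) and 47.9% with at least 5 reads (29.4%). Differing windows numbered 6 of 15 with input-covered peaks alone (33.9% of all windows), 12 of 37 at 3-fold (14.2%) and, added after seeing the data, 9 of 21 without COLO205 (34.6%). The cause of these shifts was not tested. COLO205 had the highest share of its list on 13q under each of these settings. Leaving out the first and last Mb of the arm moved none of the 30 values recomputed beyond its interval. A pseudocount of 0 gave no values, since it left 1 peak of 13q with a solution. No paired analysis was possible because each line has 1 IP library. Limits are the single library per line, weak peaks of 2 to 4 reads, and the lack of an hg19 annotation.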

Other observations

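COLO205 had a run of 5 adjacent peaks in no other list at chr13:36335641-36336218, chr13:36336294-36336874, chr13:36336960-36337113, chr13:36337252-36337402 and chr13:36337508-36337705. They had 11, 10, 10, 9 and 8 IP reads, folds of 9.61, 9.40, 8.01, 6.87 and 6.98, and less than 1 local input fragment each. COLO320DM had 3 neighbouring peaks in no other list at chr13:39263348-39263519, chr13:39263668-39263756 and chr13:39265583-39265670. There the IP reads were 39, 38 and 21 and the local input 11, 18 and 4.15 fragments. The 4.15 is not a whole number and can come from input around that peak, so it is not read as coverage of the site. Both runs were chosen after their values were seen.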
